A study of Mus musculus with 18 samples.

Results

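MAP kinase phosphatases are enzymes that remove the activating phosphates from MAP kinases. The genes described here are Dusp1, Dusp2, Dusp3, Dusp4, Dusp5, Dusp6, Dusp8 and Dusp16, which were picked by gene symbol: 8 of the 56748 genes listed in the count file, each present once. A MAP kinase is switched on by phosphorylation of a threonine and a tyrosine in its activation loop, and dual-specificity phosphatases take off both. ERK, JNK and p38 are the main MAP kinases behind cytokine production in macrophages, and several of these phosphatases are themselves transcribed after activation and act as feedback brakes. Dusp1, Dusp2, Dusp4 and Dusp5 encode nuclear phosphatases, Dusp6 a cytoplasmic phosphatase of ERK, and Dusp8 and Dusp16 phosphatases that prefer JNK and p38. Dusp3 encodes a small atypical enzyme that lacks the kinase-binding domain of the others.

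Poly(A) RNA was sequenced from an established mouse macrophage cell line, in 6 groups of 3 libraries each, 18 in all. Control cells received neither stimulus nor TBHQ. The sample labels give no harvest time for them, and the study's timeline lists them beside the groups of 12 h. The LPS group received 0.1 µg/mL lipopolysaccharide, a component of the outer membrane of Gram-negative bacteria, for 12 h. The PIC group received 20 µg/mL poly I:C, a mimic of double-stranded RNA, for 12 h. The TBHQ group received 5 µM tert-butylhydroquinone, a phenolic antioxidant known to activate Nrf2, for 4 h and was harvested then. TBHQ was dissolved in DMSO, and the study's methods describe no DMSO control among the sequenced groups. The part of DMSO in the results was not tested. The LPS + TBHQ and PIC + TBHQ groups were given TBHQ first (5 µM, 4 h), and the stimulus followed for 12 h, at 0.1 µg/mL LPS or 20 µg/mL PIC. The study's methods call the 3 libraries of a group biological replicates, and all of them come from 1 cell line. All 18 libraries carry WT in their names in the count data. Total counts ranged from 14423390 to 18851626 per library, with a median of 15742337. A level is given as the authors' FPKM (fragments scaled by gene length and library size, with a further constant per library). A difference is given as a log2 fold change (log2FC) with the SE of the replicates' spread. A difference was called when its false discovery rate (FDR), taken over all 13691 genes tested, was below 0.05. All 8 genes passed the filter on low counts and were tested.

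The macrophage label was checked against marker genes. Of 10 macrophage markers, 9 were tested, and their summed FPKM lay between 5728 and 6719 in the 18 libraries, with a median of 6445 in the control group and 5820 in the TBHQ group. The median was 5937 for LPS and 6601 for LPS + TBHQ, and 6148 for PIC and 6593 for PIC + TBHQ. Lyz2 was the most abundant of them in each group, with a mean FPKM from 3464 with PIC to 4531 in control, so it made up most of the sum, and Mertk had at most 5 counts in a library. Single markers differed in both directions. Of the 9, 4 were called higher and 3 lower with LPS, 5 and 3 with PIC, and 1 and 4 with TBHQ alone. After TBHQ pretreatment it was 3 and 4 against either stimulus. Of all genes tested, 24.0% were called higher and 24.1% lower with LPS, 28.6% and 30.1% with PIC, and 14.2% and 14.8% with TBHQ alone. After pretreatment these shares were 11.7% and 12.2% against LPS, and 15.8% and 15.5% against PIC. Adgre1 rose with LPS (log2FC 1.45 ± 0.05) and PIC (1.86 ± 0.06), and Csf1r fell with LPS (log2FC -0.75 ± 0.04) and PIC (-0.85 ± 0.05). Fcgr1 fell with TBHQ alone (log2FC -1.28 ± 0.07) and with pretreatment against LPS (-1.37 ± 0.08) and PIC (-1.08 ± 0.08). The part of these differences in the results was not tested. None of 4 T cell, 4 fibroblast and 3 epithelial markers passed the filter on low counts, and Cd3e, Cd8a, Col1a2, Krt8 and Cdh1 were at 0 counts in all 18 libraries. Summed over each list, the highest FPKM in a library was 0.0941 for T cell, 0.122 for fibroblast and 0.0279 for epithelial markers. A further marker list of this check is not reported here. Among 4 neutrophil markers Ly6g was at 0, Mpo and Elane had at most 4 counts, and S100a8 passed the filter. The summed neutrophil list had a median FPKM of 0.858 in the control group and 0.507 in the TBHQ group. The median was 3.14 for LPS and 3.88 for LPS + TBHQ, and 5.70 for PIC and 4.06 for PIC + TBHQ. S100a8 was its most abundant gene, at no more than 67 counts. Its part in the results was not tested.

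The 8 genes had widely different levels in control cells. Dusp4 was the most abundant at 77.8 ± 3.31 FPKM (mean ± SD, n = 3), followed by Dusp3 at 31.0 ± 0.629. Dusp6 at 6.73 ± 0.164 and Dusp1 at 6.52 ± 0.374 overlapped, and Dusp5 at 4.53 ± 0.285, Dusp16 at 3.91 ± 0.279 and Dusp2 at 3.08 ± 0.467 came next without overlap. Dusp8 was lowest at 0.260 ± 0.0541 FPKM, from few counts per library. Dusp4 made up 58.1% of the summed FPKM of the 8 genes in control cells and Dusp3 23.2%, against 4.88% for Dusp1 and 3.38% for Dusp5.

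The stimuli were compared with control cells to see how the genes respond to a bacterial and a viral signal. After LPS, 7 of the 8 genes were called higher and 0 lower, beside 24.0% of all tested genes called higher and 24.1% called lower. After PIC the split was again 7 higher and 0 lower, beside 28.6% and 30.1% of all genes. The median log2FC of the 8 genes was 1.03 with LPS and 1.31 with PIC, against medians of -0.0040 and -0.015 over all genes tested. Dusp3 was the gene that edgeR did not call in either. With each stimulus 7 genes passed at an unadjusted p below 0.05, and DESeq2 and limma called 0 lower. In bulk RNA, a change in the share of cells that express a gene and a change in RNA per cell cannot be told apart. Both comparisons share the control libraries. With scaling by total library size, which moved the median of all genes by -0.22 in the PIC comparison, by -0.15 with PIC + TBHQ and by -0.13 between PIC and LPS, the split was 7 higher and 1 lower with LPS and 6 higher and 1 lower with PIC. The gene called lower there was Dusp3, and the call lost was that of Dusp2 after PIC.

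Dusp1 encodes the nuclear phosphatase of p38, JNK and ERK that is best known for limiting cytokine production in macrophages. Its FPKM was 6.47, 6.17 and 6.92 in the control libraries, 28.9, 26.1 and 26.6 with LPS and 51.6, 50.6 and 46.2 with PIC. Each stimulated library lay above each control library, and each PIC library above each LPS library. Dusp1 rose 4.15-fold with LPS (log2FC 2.05 ± 0.06, SE, n = 3 per group, FDR = 2.11e-24) and 7.48-fold with PIC (log2FC 2.90 ± 0.07, FDR = 8.09e-30). After TBHQ and then a stimulus the FPKM was 16.5, 17.8 and 17.6 in the LPS + TBHQ libraries and 27.6, 28.4 and 26.5 in the PIC + TBHQ libraries. Those libraries lay between control and the matching stimulus without overlap with either. Dusp1 fell after TBHQ pretreatment, with a log2FC of -0.65 ± 0.05 against LPS alone (FDR = 2.91e-11) and -0.83 ± 0.06 against PIC alone (FDR = 6.74e-15).

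Dusp5 encodes a nuclear phosphatase that acts on ERK and holds it in the nucleus. Its FPKM was 4.61, 4.76 and 4.21 in control, 34.3, 30.6 and 33.0 with LPS and 61.7, 65.7 and 60.4 with PIC. The 3 groups did not overlap, and the rise from the low control level was the largest fold change among the 8 genes for each stimulus. Dusp5 rose 7.17-fold with LPS (log2FC 2.84 ± 0.07, FDR = 2.70e-27) and 13.7-fold with PIC (log2FC 3.77 ± 0.06, FDR = 4.27e-32). With TBHQ pretreatment the FPKM was 21.7, 19.4 and 20.4 in LPS + TBHQ and 36.0, 36.7 and 33.5 in PIC + TBHQ libraries. All 3 pretreated libraries lay below the 3 of the matching stimulus, and above control. Dusp5 fell after pretreatment, with a log2FC of -0.67 ± 0.07 against LPS (FDR = 1.68e-11) and -0.81 ± 0.05 against PIC (FDR = 1.14e-14).

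Dusp4, another nuclear phosphatase, had an FPKM of 81.0, 77.9 and 74.4 in control, 104, 99.8 and 112 with LPS and 133, 137 and 134 with PIC. Control, LPS and PIC libraries did not overlap. Dusp4 rose 1.35-fold with LPS (log2FC 0.43 ± 0.06, FDR = 1.21e-11) and 1.71-fold with PIC (log2FC 0.77 ± 0.04, FDR = 6.14e-19), small folds on the highest level of the 8 genes. The FPKM was 101, 99.2 and 97.8 with LPS + TBHQ, overlapping LPS alone, and 123, 121 and 124 with PIC + TBHQ, below each PIC library. Dusp4 fell after pretreatment with PIC (log2FC -0.12 ± 0.02, FDR = 0.0118). This call was lost with scaling by total library size (FDR = 0.269, over alternatives 0.00188 to 0.269). Against LPS alone its log2FC was -0.09 ± 0.05 and not called (FDR = 0.102). Without LPS replicate 2 that difference was called (log2FC -0.12, FDR = 0.0254, over alternatives 0.0254 to 0.547). On leaving out 1 library it ran from -0.12 to -0.04.

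Dusp2 encodes a nuclear phosphatase found mainly in blood and immune cells. Its FPKM was 3.29, 3.40 and 2.54 in control, 5.20, 4.87 and 6.14 with LPS and 4.32, 4.49 and 4.51 with PIC. The LPS libraries were the highest and did not overlap PIC, and both lay above control. Dusp2 rose 1.75-fold with LPS (log2FC 0.81 ± 0.16, FDR = 2.90e-05) and 1.43-fold with PIC (log2FC 0.52 ± 0.13, FDR = 0.00437). The PIC call was lost with scaling by total library size (FDR = 0.0872, over alternatives 0.0015 to 0.0872). The FPKM was 3.73, 4.72 and 3.21 in the LPS + TBHQ libraries and 2.79, 2.67 and 3.36 in the PIC + TBHQ libraries. Both pretreated groups lay below their stimulus and overlapped the control libraries. Dusp2 fell with pretreatment (log2FC -0.48 ± 0.19, FDR = 0.0136 against LPS, and -0.58 ± 0.10, FDR = 0.0042 against PIC). The LPS difference was not called without LPS replicate 3 (FDR = 0.0923) or without LPS + TBHQ replicate 3 (FDR = 0.111), over alternatives 0.00294 to 0.111.

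Dusp6 encodes the cytoplasmic phosphatase specific to ERK. Its FPKM was 6.80, 6.84 and 6.54 in control, 9.39, 9.09 and 9.18 with LPS and 10.4, 9.35 and 9.63 with PIC. Both stimulated groups lay above control, and PIC overlapped LPS. Dusp6 rose 1.36-fold with LPS (log2FC 0.45 ± 0.02, FDR = 4.67e-06) and 1.44-fold with PIC (log2FC 0.52 ± 0.05, FDR = 1.55e-07). The FPKM was 9.93, 10.4 and 10.2 in the LPS + TBHQ libraries and 9.77, 9.44 and 10.1 in the PIC + TBHQ libraries. The LPS + TBHQ libraries lay above LPS, without a call, and the PIC + TBHQ libraries overlapped PIC. The log2FC was 0.14 ± 0.02 against LPS (95% interval -0.0048 to 0.28, FDR = 0.163) and 0.01 ± 0.05 against PIC (95% interval -0.13 to 0.15, FDR = 0.933). The sign of the PIC value changed with the setting.

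Dusp16 encodes a phosphatase that prefers JNK and p38 and shuttles between nucleus and cytoplasm. Its FPKM was 4.18, 3.62 and 3.94 in control, 9.71, 9.28 and 9.24 with LPS and 14.6, 13.8 and 14.4 with PIC. The 3 groups did not overlap. Dusp16 rose 2.39-fold with LPS (log2FC 1.26 ± 0.06, FDR = 1.25e-19) and 3.61-fold with PIC (log2FC 1.85 ± 0.06, FDR = 2.20e-25). With TBHQ pretreatment the FPKM was 7.37, 7.26 and 6.64 in LPS + TBHQ and 9.07, 9.47 and 9.29 in PIC + TBHQ libraries. Each pretreated library lay below each library of the matching stimulus and above each control library. Dusp16 fell with pretreatment (log2FC -0.41 ± 0.05, FDR = 2.30e-07 against LPS, and -0.61 ± 0.03, FDR = 7.93e-12 against PIC).

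Dusp8 encodes a phosphatase of JNK and p38. Its FPKM was 0.321, 0.239 and 0.219 in control, 1.31, 0.829 and 0.775 with LPS and 1.41, 0.931 and 1.42 with PIC, from 9 to 117 counts per library over the 18 libraries. Both stimulated groups lay above control, and LPS replicate 1 stood above the other LPS libraries. Dusp8 rose 3.73-fold with LPS (log2FC 1.90 ± 0.28, FDR = 6.92e-08) and 4.79-fold with PIC (log2FC 2.26 ± 0.25, FDR = 4.17e-10). The FPKM was 0.872, 0.705 and 0.655 in the LPS + TBHQ libraries and 1.19, 1.03 and 0.960 in the PIC + TBHQ libraries, and both groups overlapped their stimulus. No difference from pretreatment was called (log2FC -0.39 ± 0.26, 95% interval -0.82 to 0.04 against LPS, and -0.24 ± 0.22, 95% interval -0.64 to 0.16 against PIC). On leaving out 1 library the log2FC ran from -0.53 to -0.12 against LPS and from -0.42 to -0.15 against PIC.

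Dusp3, the atypical phosphatase of ERK and JNK, had an FPKM of 30.3 to 31.5 in control, 28.6 to 30.4 with LPS and 29.1 to 30.8 with PIC, from 1896 to 2559 counts per library over the 18 libraries. With TBHQ the FPKM was 29.2 to 30.5, with LPS + TBHQ 29.7 to 31.1 and with PIC + TBHQ 30.9 to 32.6. Neighbouring groups in the order of means overlapped. No comparison of Dusp3 was called with the scaling used here, and its log2FC was -0.07 ± 0.03 with LPS (95% interval -0.15 to 0.0097) and -0.06 ± 0.03 with PIC (95% interval -0.14 to 0.02).

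**Figure D1:**
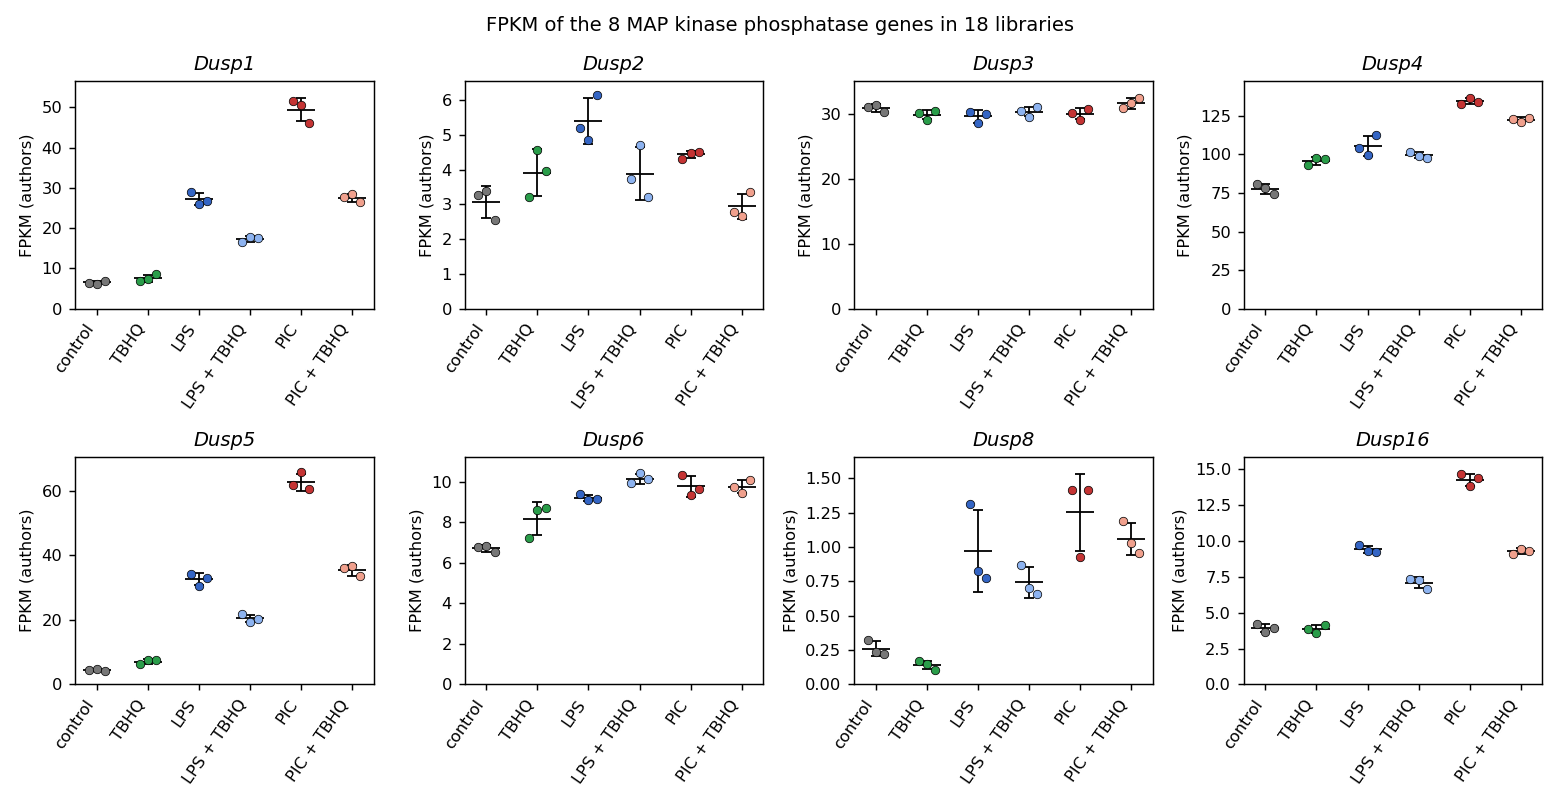
FPKM of each of the 8 genes (y axes, authors' values, starting at 0) in the 6 groups (x axes). Points are libraries, and the horizontal line and bars are the mean and SD (n = 3 per group). Dusp1, Dusp5 and Dusp16 are highest with PIC and lower in both pretreated groups than in the matching stimulus, while Dusp3 libraries stay between 28.6 and 32.6.

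PIC was set beside LPS to compare the stimuli at 12 h, each at its own dose. Dusp1, Dusp4, Dusp5 and Dusp16 were called higher with PIC, which is 4 of 8 genes beside 14.9% of all genes, and 0 were called lower by edgeR beside 12.8%. In all, 4 of the 8 genes passed at an unadjusted p below 0.05, and DESeq2 and limma also called 0 lower. The log2FC was 0.93 ± 0.06 for Dusp5 (FDR = 4.08e-16), 0.85 ± 0.07 for Dusp1 (FDR = 5.07e-15), 0.59 ± 0.03 for Dusp16 (FDR = 2.72e-11) and 0.34 ± 0.05 for Dusp4 (FDR = 8.93e-09). Each of these genes was higher in 3 of 3 PIC libraries than in any LPS library. Dusp2 had a log2FC of -0.29 ± 0.10 (FDR = 0.141) with all PIC libraries below all LPS libraries, Dusp6 0.08 ± 0.05, Dusp3 0.01 ± 0.03 and Dusp8 0.36 ± 0.30. The median over the 8 genes was 0.35, against -0.0087 over all genes. With scaling by total library size the split was 4 higher and 2 lower. Dusp2 was then at -0.42 and Dusp3 at -0.12, and the signs of Dusp3 and Dusp6 turned. Without LPS replicate 1, Dusp8 was called higher with PIC (log2FC 0.64, FDR = 0.0285, over alternatives 0.0285 to 0.52). On leaving out 1 library its log2FC ran from 0.23 to 0.64.

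TBHQ pretreatment was compared with the stimulus alone to see what it does to the induced genes. With LPS, 4 of 8 genes were called lower (Dusp1, Dusp2, Dusp5 and Dusp16) beside 12.2% of all genes, and 0 were called higher by edgeR beside 11.7%. With PIC, 5 of 8 were called lower (the same 4 and Dusp4) beside 15.5% of all genes, and 0 were called higher by edgeR beside 15.8%. DESeq2 and limma called 0 higher in either comparison too. At an unadjusted p below 0.05, 5 genes passed with LPS and 6 with PIC, where the sixth is Dusp3 on the higher side (log2FC 0.09 ± 0.03, FDR = 0.0904). Scaling by total library size called Dusp3 higher with PIC (log2FC 0.16, FDR = 0.00168, over alternatives 0.00168 to 0.435), so that the split was 1 higher and 4 lower. The median log2FC of the 8 genes was -0.40 with LPS and -0.41 with PIC, against medians near 0 over all genes (0.0023 and 0.0089). The pretreated cells were harvested 12 h after the stimulus, as were the cells with the stimulus alone, but were in culture with additions for 4 h longer, and that part was not tested.

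Of the genes called lower after pretreatment, all but Dusp2 were still called higher than control. Against control, 6 of 8 genes were called higher with LPS + TBHQ and 0 lower by edgeR, beside 21.2% of all genes called higher and 22.5% called lower. With PIC + TBHQ it was also 6 higher and 0 lower, beside 26.4% and 26.0% of all genes. DESeq2 and limma called 0 lower in either comparison. At an unadjusted p below 0.05, 7 genes passed with LPS + TBHQ and 6 with PIC + TBHQ. Dusp2 was not called, with a log2FC of 0.33 ± 0.20 (FDR = 0.0843) after LPS + TBHQ and -0.06 ± 0.17 (FDR = 0.775) after PIC + TBHQ. The 95% interval after LPS + TBHQ was 0.02 to 0.64. Without LPS + TBHQ replicate 3 that value was called higher (log2FC 0.45, FDR = 0.0271, over alternatives 0.0271 to 0.462). On leaving out 1 library it ran from 0.17 to 0.45. The log2FC after PIC + TBHQ was 2.96 ± 0.07 for Dusp5, 2.07 ± 0.05 for Dusp1, 2.02 ± 0.18 for Dusp8, 1.24 ± 0.06 for Dusp16, 0.65 ± 0.04 for Dusp4 and 0.53 ± 0.04 for Dusp6. After LPS + TBHQ the same genes had a log2FC of 2.17 ± 0.07, 1.40 ± 0.06, 1.51 ± 0.19, 0.85 ± 0.08, 0.35 ± 0.04 and 0.59 ± 0.03, in that order. The medians of the 8 genes were 0.72 and 0.95, against -0.0075 and -0.0012 over all genes. Scaling by total library size gave 6 higher and 1 lower in each, the lower gene being Dusp3.

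At the threshold the study used (FDR below 0.01 and a log2FC past 2 on either side), fewer genes remained, and those of the 8 that passed were all higher. The shares beside them count all genes that passed on the higher side only. Dusp1 and Dusp5 passed with LPS, 2 of 8 genes beside 1.34%, and Dusp1, Dusp5 and Dusp8 with PIC, 3 of 8 beside 2.70%. Dusp5 passed with LPS + TBHQ, 1 of 8 beside 0.840%, and Dusp1, Dusp5 and Dusp8 with PIC + TBHQ, 3 of 8 beside 1.76%. Several of these log2FC lay close to 2. For Dusp8 with PIC + TBHQ it was 2.02, and it went below 2 without control replicate 2 (1.97), control replicate 3 (1.91) or PIC + TBHQ replicate 1 (1.93). Dusp8 with LPS, at 1.90, went above 2 without control replicate 1 (2.07), LPS replicate 2 (2.01) or LPS replicate 3 (2.05). With total library size Dusp1 went below 2 with LPS (1.96) and with PIC + TBHQ (1.92), as did Dusp8 with PIC + TBHQ (1.87). By limma on log2(FPKM + 1) Dusp1 with LPS (1.91) and PIC + TBHQ (1.92), Dusp5 with LPS + TBHQ (1.96) and Dusp8 with PIC (0.83) and PIC + TBHQ (0.71) were below 2. The 1 added there is larger than the control FPKM of Dusp8 (0.260), which makes the log2FC of this gene smaller. By limma on log2(FPKM + 0.1) Dusp8 was at 1.90 with PIC and 1.69 with PIC + TBHQ.

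Whether pretreatment acted differently under the stimuli was tested as the difference between its effects. Of the 8 genes, 0 were called higher and 0 lower by edgeR, beside 0.825% and 1.01% of all genes. Of these genes 2 passed at an unadjusted p below 0.05, and DESeq2 and limma called 0. Dusp16 had a difference of -0.20 ± 0.06 (PIC minus LPS, FDR = 0.185) and Dusp1 of -0.18 ± 0.08 (FDR = 0.271). Dusp5 was at -0.14 ± 0.08 with a 95% interval of -0.30 to 0.02, Dusp2 at -0.10 ± 0.21 with -0.53 to 0.33, and Dusp8 at 0.15 ± 0.34 with -0.43 to 0.73. The median of the 8 genes was -0.11, against 0.0091 over all genes.

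TBHQ alone was compared with control to describe the cells at the time the stimulus was added. Of the 8 genes 4 were called higher (Dusp1, Dusp4, Dusp5 and Dusp6) beside 14.2% of all genes, and 0 were called lower by edgeR beside 14.8%. At an unadjusted p below 0.05, 6 genes passed, and DESeq2 and limma called 0 lower. The median log2FC of the 8 genes was 0.25, against -8.57e-05 over all genes. This group was harvested after 4 h, and the study's timeline lists control beside the groups of 12 h, so time in culture and TBHQ cannot be told apart.

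The FPKM of Dusp5 with TBHQ was 6.17, 7.42 and 7.45, above each control library. Dusp5 rose 1.55-fold (log2FC 0.63 ± 0.10, FDR = 7.04e-07). Dusp4 had an FPKM of 93.0, 97.8 and 97.1, also above each control library, and rose by a log2FC of 0.30 ± 0.04 (FDR = 1.80e-07). For Dusp6 the FPKM was 7.23, 8.63 and 8.69, where replicate 1 was the lowest but still above control (log2FC 0.28 ± 0.09, FDR = 0.00377). Dusp1 had an FPKM of 6.84, 7.44 and 8.52, and its lowest TBHQ library overlapped the control libraries (log2FC 0.22 ± 0.10, FDR = 0.0261). The Dusp1 call was lost without control replicate 1 (FDR = 0.0641), control replicate 2 (FDR = 0.127) or TBHQ replicate 3 (FDR = 0.266), over alternatives 0.00604 to 0.266. It was also lost in a fit of the compared groups only (FDR = 0.0528) and by limma on log2(FPKM + 1) (FDR = 0.0535). On leaving out 1 library the log2FC of Dusp1 ran from 0.13 to 0.29.

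Dusp2 with TBHQ had an FPKM of 3.22, 4.58 and 3.95, overlapping control (log2FC 0.35 ± 0.19, FDR = 0.0906). Without TBHQ replicate 1 it was called (log2FC 0.47, FDR = 0.0304, over alternatives 0.0304 to 0.388). On leaving out 1 library the log2FC of Dusp2 ran from 0.22 to 0.47. Dusp8 had an FPKM of 0.169, 0.151 and 0.108, below each control library, without a call (log2FC -0.85 ± 0.22, 95% interval -1.56 to -0.15, FDR = 0.061). It was called without LPS replicate 1 (FDR = 0.044) and with the replicate number as a block (FDR = 0.0343), over alternatives 0.0343 to 0.428. Dusp16 had an FPKM of 3.84, 3.58 and 4.16, spread as in control (log2FC -0.02 ± 0.09, 95% interval -0.15 to 0.11). Dusp3 had a log2FC of -0.05 ± 0.03 (FDR = 0.362).

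**Figure D2:**
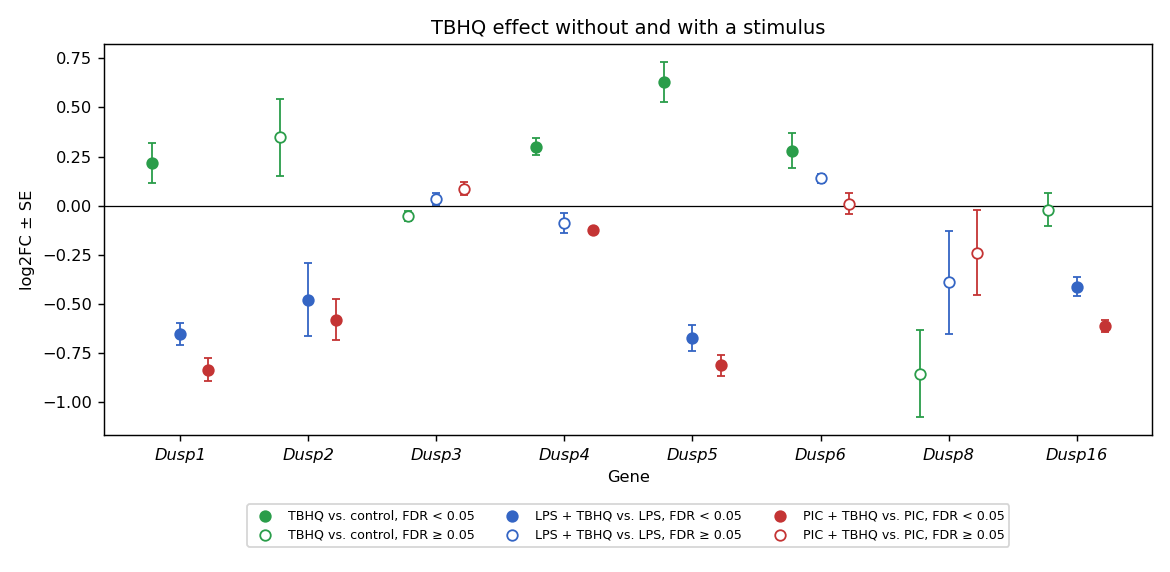
The log2FC of each gene (y axis, ± SE, n = 3 per group) for TBHQ against control, LPS + TBHQ against LPS and PIC + TBHQ against PIC, with genes along the x axis. Filled points were called at an FDR below 0.05 and open points were not. Dusp5 stood at 0.63 without a stimulus and at -0.67 and -0.81 with LPS and PIC.

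The TBHQ effect with a stimulus was then set against the TBHQ effect without it, a comparison chosen after seeing the data. With LPS, 5 of 8 genes were called lower beside 9.33% of all genes, and 0 were called higher by edgeR beside 9.14%. With PIC, 6 of 8 were called lower beside 12.5%, and 0 were called higher by edgeR beside 13.3%. At an unadjusted p below 0.05, 5 genes passed with LPS and 7 with PIC, and DESeq2 and limma called 0 higher. The median was -0.39 with LPS and -0.51 with PIC, against 0.0071 and 0.016 over all genes. Dusp5 had the largest difference, -1.30 ± 0.12 with LPS (FDR = 9.81e-12) and -1.44 ± 0.12 with PIC (FDR = 2.37e-13), being higher with TBHQ alone and lower with TBHQ and a stimulus. The same turn of sign was seen for Dusp1 (-0.87 ± 0.12 and -1.05 ± 0.12). Its rise with TBHQ alone was small (0.22 ± 0.10, FDR = 0.0261), and that call was lost in several alternatives, as given above. Dusp4 turned from 0.30 ± 0.04 with TBHQ alone to -0.12 ± 0.02 with PIC, while its -0.09 ± 0.05 with LPS was not called. Dusp2 turned from 0.35 ± 0.19, which was not called, to -0.48 ± 0.19 with LPS and -0.58 ± 0.10 with PIC. With scaling by total library size the PIC split was 1 higher (Dusp3) and 5 lower. The PIC call of Dusp6 (-0.27 ± 0.10, FDR = 0.0496) was lost there, with DESeq2 (FDR = 0.0665, over alternatives 0.00934 to 0.152), with the replicate number as a block, in a fit of the compared groups only, without the filter, and on leaving out any 1 of 11 libraries. Both comparisons use the same control and TBHQ libraries, and stimulus and harvest time cannot be told apart in them.

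The share of each gene in the sum of the 8 differed between groups. Summed over the 8 genes, FPKM was 134 ± 4.45 in the control group (mean ± SD, n = 3) and 157 ± 5.22 in the TBHQ group. The sum was 220.1 ± 9.62 for LPS and 189.6 ± 2.23 for LPS + TBHQ, and 306 ± 4.62 for PIC and 240.3 ± 0.289 for PIC + TBHQ. These 6 groups did not overlap. Dusp4 remained the most abundant gene in each group, but its share went from 58.1% in control to 43.9% with PIC. The share of Dusp5 went from 3.38% to 20.4% and that of Dusp1 from 4.88% to 16.1%, while Dusp3 went from 23.2% to 9.82%. These shares were not tested. With LPS, Dusp5 moved ahead of Dusp3, which overlapped Dusp1. With PIC, Dusp5 and Dusp1 both stood above Dusp3 without overlap. With LPS + TBHQ, Dusp3 was again ahead of Dusp5 and Dusp1. With PIC + TBHQ, Dusp5 (mean FPKM 35.4) was ahead of Dusp3 (31.7) and Dusp3 ahead of Dusp1 (27.5), without overlap.

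Ordered by group, Dusp1, Dusp4 and Dusp5 ran from PIC, through PIC + TBHQ, LPS, LPS + TBHQ and TBHQ, down to control. For Dusp1 the PIC + TBHQ libraries overlapped LPS, and TBHQ overlapped control. For Dusp5 the PIC + TBHQ libraries overlapped LPS. For Dusp4 LPS overlapped LPS + TBHQ, which overlapped TBHQ. Dusp16 ran from PIC through LPS, PIC + TBHQ, which overlapped LPS, and LPS + TBHQ to control and TBHQ, which overlapped each other. Dusp2 was highest with LPS, and from PIC to PIC + TBHQ each group overlapped the next. For Dusp6 the order by mean was LPS + TBHQ, PIC, PIC + TBHQ, LPS, TBHQ and control, where the first 3 overlapped from neighbour to neighbour and PIC also overlapped LPS. For Dusp8 the 4 stimulated groups overlapped from neighbour to neighbour, above control and then TBHQ.

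Among phosphatases of the family that were not in the set, Dusp7, Dusp9 and Dusp10 were all tested. With LPS 1 of the 3 was called higher and 0 lower, and with PIC 2 and 0, beside the shares of all genes given above for these comparisons. Dusp10, a phosphatase of JNK and p38, rose with LPS (log2FC 2.32 ± 0.36, FDR = 1.64e-10) and fell with pretreatment against LPS (log2FC -0.69 ± 0.14, FDR = 0.00644) and PIC (log2FC -1.05 ± 0.14, FDR = 2.28e-05). Dusp7, a cytoplasmic phosphatase of ERK as is Dusp6, rose with pretreatment against LPS (log2FC 0.51 ± 0.06, FDR = 1.81e-06) and PIC (log2FC 0.51 ± 0.05, FDR = 7.02e-07). Of 14 other atypical dual-specificity phosphatases, 10 were tested. With LPS 2 were called higher and 2 lower, beside 24.0% and 24.1% of all genes, and with PIC 1 higher and 4 lower, beside 28.6% and 30.1%. Dusp14 rose with LPS (log2FC 2.32 ± 0.09) and PIC (log2FC 3.32 ± 0.11). The median log2FC of the 10 was -0.15 with LPS and -0.06 with PIC, against -0.0040 and -0.015 over all genes.

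The genes whose pattern was most like each member were found by Pearson's r of TMM-scaled log2 counts over the 18 libraries, among 10450 other genes. These r are descriptions, and the libraries fall into the 6 groups. Nearest to Dusp5 were Ier3 (r = 0.997), Rapgef2 (r = 0.996) and Ptgs2 (r = 0.994). Nearest to Dusp1 were Rsbn1 (r = 0.995), Slc2a1 (r = 0.993) and Dusp16 (r = 0.993). For Dusp16 they were Dusp1, Il13ra2 (r = 0.993) and Il1rn (r = 0.992). For Dusp4 they were Nlrp3 (r = 0.986), Lamc1 (r = 0.985) and Chd7 (r = 0.980), and for Dusp8 Ern1 (r = 0.978), Sars (r = 0.977) and Usp32 (r = 0.977). Dusp6 was nearest to Psat1 (r = 0.956), Stk10 (r = 0.939) and Mindy1 (r = 0.937). Dusp2 had lower values, for Chd6 (r = 0.814), Qpctl (r = 0.798) and Pik3ap1 (r = 0.793). Dusp3 had the lowest leading values beside Dusp2, for Erbb3 (r = 0.814), Rita1 (r = 0.757) and Ssna1 (r = 0.748).

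The genes lie on 8 chromosomes. In the coordinates of the authors' files, whose build is labelled GRCm38/mm39 but whose starts differ from GRCm38 for 50588 of 52125 shared gene identifiers, Dusp1 (ENSMUSG00000024190) is at chr17:26724564-26781102 on the minus strand. Dusp2 (ENSMUSG00000027368) is at chr2:127178079-127180296 (+), Dusp3 (ENSMUSG00000003518) at chr11:101861969-101877839 (-) and Dusp4 (ENSMUSG00000031530) at chr8:35274451-35287048 (+). Dusp5 (ENSMUSG00000034765) is at chr19:53517540-53530862 (+), Dusp6 (ENSMUSG00000019960) at chr10:99099093-99103351 (+), Dusp8 (ENSMUSG00000037887) at chr7:141633227-141649580 (-) and Dusp16 (ENSMUSG00000030203) at chr6:134692431-134769588 (-).

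The listed interval of Dusp1 overlaps Ergic1 on the opposite strand, a gene with a mean of 1758 counts. Ergic1 had a log2FC of -0.13 ± 0.03 for LPS, -0.29 ± 0.03 for PIC, 0.17 ± 0.03 for LPS + TBHQ against LPS and 0.33 ± 0.01 for PIC + TBHQ against PIC. With TBHQ alone it was at 0.21 ± 0.04. The study's methods describe the libraries as strand-specific, and whether the counting used the strand was not tested. Of the transcript sequence of Dusp5, 20.5% of all 50-base words also lie in Gm50394 on the opposite strand, which had at most 2 counts in a library. For Dusp3 the share was 11.2%, mainly with Gm20659, which had 0 counts, for Dusp8 0.581%, and for the other 5 genes 0.

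Dusp1, Dusp2, Dusp5 and Dusp16 were called lower after pretreatment with both stimuli, so the 250 bases before their starts are shown. The sequences are from RefSeq (GRCm38.p6), on the strand of the gene, 5′ to 3′. In the set of promoters used here 7 of the 8 genes had an entry, and Dusp4 had none. Capitals mark the letters TGACG, a part of the cAMP response element, the core of the antioxidant response element (TGACNNNGC) and the CArG box, on either strand, and Dusp2 holds none of them. The windows are chr17:26508473-26508722 (-) for Dusp1, chr2:127335909-127336158 (+) for Dusp2, chr19:53528895-53529144 (+) for Dusp5 and chr6:134792629-134792878 (-) for Dusp16.
Dusp1: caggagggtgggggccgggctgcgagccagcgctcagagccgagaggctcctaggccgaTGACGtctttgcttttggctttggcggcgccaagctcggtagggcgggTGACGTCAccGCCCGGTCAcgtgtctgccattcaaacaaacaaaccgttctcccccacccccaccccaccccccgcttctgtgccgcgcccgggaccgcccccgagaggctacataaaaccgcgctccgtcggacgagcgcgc
Dusp2: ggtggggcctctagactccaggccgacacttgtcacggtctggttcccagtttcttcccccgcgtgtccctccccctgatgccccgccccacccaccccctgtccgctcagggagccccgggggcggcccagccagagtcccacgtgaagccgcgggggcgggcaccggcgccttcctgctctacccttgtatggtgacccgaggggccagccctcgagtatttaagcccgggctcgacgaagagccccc
Dusp5: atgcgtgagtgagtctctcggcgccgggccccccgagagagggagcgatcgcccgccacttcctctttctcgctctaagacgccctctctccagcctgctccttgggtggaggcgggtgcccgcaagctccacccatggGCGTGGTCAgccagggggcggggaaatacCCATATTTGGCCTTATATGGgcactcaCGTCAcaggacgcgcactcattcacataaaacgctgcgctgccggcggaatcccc
Dusp16: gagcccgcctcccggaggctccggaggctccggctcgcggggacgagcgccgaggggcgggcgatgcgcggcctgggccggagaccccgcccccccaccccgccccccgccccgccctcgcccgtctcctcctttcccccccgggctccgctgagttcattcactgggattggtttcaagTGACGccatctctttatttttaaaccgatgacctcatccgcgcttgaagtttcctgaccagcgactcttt

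Motifs were searched on both strands of these windows and of 32851 promoters of the same length. The full cAMP response element (TGACGTCA), which contains TGACG on each strand, was in 1.55% of all promoters. Dusp1 held 1 match, with its first base at -143 from the start, and Dusp8 held 2, while the other 5 genes held 0. The shorter TGACG was in 17.8% of all promoters and in Dusp1, Dusp5, Dusp8 and Dusp16. The core TGACNNNGC was in 10.2% of all promoters, with 1 match in Dusp1 and 1 in Dusp5. The CArG box was in 1.47% of all promoters, with 2 matches in Dusp5. The E-box CACGTG was in 6.02%, with 1 match each in Dusp1 and Dusp2, and in Dusp1 it overlaps the core of the antioxidant response element. GGGCGG was in 32.7% of all promoters and in 6 of the 7 genes, with 0 matches in Dusp6. The AP-1 motif (4.46%), the κB motif (7.25%) and TATAAA (12.4%) had 0 matches in the 7 windows. A match is a description of letters and not of binding.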

How the data were processed

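RNA-seq counts and FPKM of 18 libraries of a mouse macrophage cell line (3 in each of 6 groups) were read. The deposited counts are raw fragment counts per gene, one column per library. The deposited FPKM values were made by the authors by scaling to gene length and mapped fragments, with a further constant per library of 0.943 to 1.12. The constant differed between groups, and FPKM levels compared between groups include it. It was 0.943 to 0.951 in control, 1.005 to 1.015 with LPS and 1.112 to 1.116 with PIC. The submitters' processing notes list HISAT2 2.0.5, StringTie 1.3.3b and featureCounts 1.5.0-p3. FPKM is used for levels and counts for tests.

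Genes were filtered with filterByExpr, which left 13691 of 27701 genes with a count, scaled with TMM and fitted with edgeR's quasi-likelihood test in 1 fit over 18 libraries (12 residual degrees of freedom), and p-values were adjusted by Benjamini-Hochberg over all 13691 genes. A value was called at an FDR below 0.05. The SE comes from the spread of the replicates' TMM-scaled log2 counts (prior count 2), and 95% intervals come from the fit and are not adjusted for the number of genes. Intervals and p-values cover the spread between these cultures, and the depth of 14423390 to 18851626 counts puts the floor of 3 counts at 0.159 to 0.208 CPM (counts scaled to library size). The versions were Python 3.11.15 with matplotlib 3.10.9, scipy 1.17.1, numpy 2.4.6 and pandas 2.3.3, and R 4.3.3 with limma 3.58.1, DESeq2 1.42.0 and edgeR 4.0.16. The tests were also run on simulated data.

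The 8 members are all named. The members and lists were chosen with earlier results of these data known. From each list at most 4 genes per comparison could be named, those called with the largest log2FC of either sign and a mean of at least 50 counts, and for each member the 3 genes with the highest correlation. The alternatives were DESeq2, a fit of the compared groups only, RLE size factors, total library size, no filter, a mean of at least 50 counts, the replicate number as a block, FDR below 0.01, the study's threshold, limma with 1 or 0.1 added to FPKM before the logarithm, and fits without 1 library, for each of the 18. The comparison of the TBHQ effect with and without a stimulus was added after seeing the data. No library was left out, and no protein sequence was available.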

Additional observations from a re-analysis of the deposited data

Results flagged for a closer look

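For several genes the effect of TBHQ in stimulated cells differed from its effect in cells without a stimulus, by a test of the difference itself. The comparison was chosen after seeing the data. Both differences share the control and TBHQ libraries, and cells with TBHQ alone were harvested after 4 h, so stimulus and time cannot be told apart. With LPS the difference in log2FC was -1.30 for Dusp5 (FDR = 9.81e-12), -0.87 for Dusp1 (FDR = 1.01e-08), -0.83 for Dusp2 (FDR = 0.00472), -0.39 for Dusp16 (FDR = 6.98e-04) and -0.39 for Dusp4 (FDR = 1.73e-06). With PIC it was -1.44 for Dusp5 (FDR = 2.37e-13), -1.05 for Dusp1 (FDR = 5.27e-11), -0.93 for Dusp2 (FDR = 0.00163), -0.59 for Dusp16 (FDR = 8.66e-07), -0.42 for Dusp4 (FDR = 2.11e-07) and -0.27 for Dusp6 (FDR = 0.0496). The Dusp6 value was not called by DESeq2 (FDR = 0.0665, over alternatives 0.00934 to 0.152), in a fit of the compared groups only, without the filter, with the replicate number as a block, with total library size, or on leaving out any 1 of 11 libraries: control replicates 1, 2 and 3, PIC replicate 1, TBHQ replicates 2 and 3, LPS + TBHQ replicates 1, 2 and 3, and PIC + TBHQ replicates 1 and 2.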

How the results depend on the processing

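Of 88 member values 54 were called. Over 9 alternative fits, 50 of these were called throughout, 4 were weaker and 0 reversed. Of the values not called, 7 became called with the same sign and 2 with the sign turned, both Dusp3 with total library size (PIC + TBHQ against control and PIC against LPS). On leaving out each of 18 libraries in turn, 51 were called throughout, 0 called values reversed, and 5 values not called became called. At an FDR below 0.01, 50 remained. The counts of members at the study's threshold were 2 for LPS, 3 for PIC, 1 for LPS + TBHQ, 3 for PIC + TBHQ and 0 for each of the other comparisons. The cause of differences was not tested, but that threshold asks for a larger change.

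Values that turned sign were not called in the fit used here. With total library size Dusp3 was at -0.12 for PIC + TBHQ against control and -0.12 for PIC against LPS, Dusp6 at -0.0544 for PIC against LPS, and Dusp4 at 0.0074 for the difference of the TBHQ effect between stimuli. Dusp6 in PIC + TBHQ against PIC was at -0.0025 with DESeq2, -0.0053 with RLE, -0.0085 at a mean of at least 50 counts, -0.0015 by limma on log2(FPKM + 1) and -0.0016 on log2(FPKM + 0.1). Dusp8 for TBHQ with LPS against TBHQ without was at -0.0295 by limma on log2(FPKM + 1). Without 1 library the ranges were -0.189 to 0.0178 for Dusp2 in PIC + TBHQ, -0.0764 to 0.0299 for Dusp16 with TBHQ, -0.0339 to 0.0368 for Dusp6 in PIC + TBHQ against PIC, -0.0111 to 0.0350 for Dusp3 in PIC against LPS, and -0.13 to 0.28 for Dusp8 and -0.22 to 0.0613 for Dusp2 in the difference between stimuli. Each gene's group mean was subtracted, and these deviations were correlated between libraries of different groups. For same-number libraries r was -0.0444 to 0.0645 over 45 pairs, with a median of 0.00225. The median was -0.000615 for libraries of other numbers, so the block was tried as an alternative only.

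Over all genes the study's threshold left 224 of 6589 calls with LPS, 489 of 8037 with PIC, 132 of 5983 with LPS + TBHQ, 295 of 7178 with PIC + TBHQ, 26 of 3973 with TBHQ, 53 of 3274 and 41 of 4285 with pretreatment against LPS and PIC, 42 of 3787 for PIC against LPS and 0 of 251 for the difference. For the comparisons added later it left 40 of 2529 and 49 of 3532. An FDR below 0.01 left 2178 for pretreatment against LPS, 115 for the difference and 1500 and 2238 for the added comparisons. For the difference, no filter gave 380 and limma on log2(FPKM + 0.1) gave 129. Dusp8 had the fewest counts, 9 to 117, and depth and spread were not separated.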

Other observations

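The cascade around the phosphatases was read from lists of its genes. Among all genes tested, LPS gave 24.0% called higher and 24.1% called lower, and PIC gave 28.6% and 30.1%. After pretreatment 11.7% were called higher and 12.2% lower than with LPS, and 15.8% and 15.5% than with PIC. The counts of each list stand beside these shares, and no list was tested as a whole. Of 13 MAP kinases 9 were tested, of which 3 were called higher and 2 lower with LPS and 5 higher and 3 lower with PIC. The LPS counts lay near the shares over all genes. Mapk11, a p38 kinase, was at 0.62 ± 0.10 with LPS (log2FC, FDR = 8.56e-07) and 0.68 ± 0.13 with PIC. After pretreatment 3 were higher and 1 lower than with LPS, and 5 higher and 1 lower than with PIC. Mapk14, the main p38 kinase, was at 0.26 ± 0.02 (FDR = 3.07e-06) and 0.27 ± 0.02 (FDR = 1.49e-06), and the JNK gene Mapk8 at -0.29 ± 0.06 and -0.43 ± 0.09. Of 7 MAP kinase kinases, all tested, Map2k1, which activates ERK, was at 0.46 ± 0.04 with LPS and 0.61 ± 0.03 with PIC, and at -0.34 ± 0.05 and -0.32 ± 0.02 after pretreatment. With LPS 1 of the 7 was called higher and 3 lower, and with PIC 3 and 3. After pretreatment 0 were higher and 2 lower than with LPS, and 0 higher and 3 lower than with PIC.

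Above the MAP kinase kinases, all 23 listed genes were tested, 7 higher and 5 lower with LPS, near the shares over all genes, and 9 higher and 8 lower with PIC. Map3k20 was at 0.70 ± 0.06 with LPS (FDR = 8.53e-16). Of 10 kinases below the MAP kinases 9 were tested, 4 higher and 3 lower with LPS and 4 higher and 2 lower with PIC, and Rps6ka2, a kinase that ERK activates, was at 1.27 ± 0.11 with LPS and 2.35 ± 0.11 with PIC. Of 9 scaffolds 7 were tested, 4 higher and 1 lower with LPS and 4 higher and 3 lower with PIC. Of 9 other phosphatases listed 8 were tested, 4 higher and 1 lower with LPS and 6 higher and 1 lower with PIC. Among them Ppm1k was at 0.97 ± 0.10 with PIC (FDR = 1.39e-09), and whether it acts on MAP kinases was not tested. Of 7 Sprouty and Spred inhibitors of ERK signalling 4 were tested, 2 higher and 1 lower with LPS and 2 higher and 0 lower with PIC, and Spred3 was at 0.99 ± 0.12 with LPS and 1.31 ± 0.15 with PIC.

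All 12 genes of a list known to respond to ERK were tested. With LPS 6 were called higher and 5 lower, and with PIC 6 and 4. Phlda1 was at 3.58 ± 0.11 with LPS and 4.81 ± 0.06 with PIC, and Ier3 at 2.63 ± 0.09 and 3.46 ± 0.09. After pretreatment 5 were lower and 1 higher than with LPS, and 6 lower and 2 higher than with PIC. Egr1 was at -1.26 ± 0.09 and -1.74 ± 0.09 in these comparisons. With TBHQ alone 5 of the 12 were called higher and 4 lower, beside 14.2% and 14.8% of all genes. Egr1 was at -0.83 ± 0.04 there and Fosl1 at 1.55 ± 0.15. Of 8 check genes for the treatments all were called higher with LPS and with PIC. Ptgs2 was at 4.25 ± 0.10 and 5.80 ± 0.05, and with TBHQ alone Hmox1 was at 2.09 ± 0.05, Gclm at 1.82 ± 0.03 and Srxn1 at 1.57 ± 0.04.

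With LPS the median log2FC was 0.10 for the MAP kinases, -0.05 for the MAP kinase kinases, -0.02 for the genes above them, 0.09 for the kinases below and 0.15 for the scaffolds, against -0.0040 over all genes tested. It was 0.07 for the other phosphatases, 0.38 for the Sprouty and Spred genes, 0.47 for the genes that respond to ERK, 2.19 for the check genes and 0.13 for Dusp7, Dusp9 and Dusp10.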
